A study of Mus musculus with 22 samples.

Results

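Immediate early genes are transcribed within minutes of a stimulus without new protein synthesis. Here 10 of them were followed across 22 Affymetrix mouse expression arrays of mouse cerebellar granule cells, which the labels all call granule neurons. The members are Fos, Fosb, Fosl2, Jun, Junb, Egr1, Egr3, Arc, Npas4 and Nr4a1, taken by gene symbol, out of 18193 genes named by the annotation, and 13 of the 45101 probe sets of the array carry one of these symbols. All arrays hold RNA of granule cells from postnatal day 7 (P7) pups, whose strain the labels write as C56Bl6/J and the methods give as C57BL/6N. The methods state that the sex of the pups was not distinguished, and the labels call all samples biological replicates without naming litters or culture days.

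In the Chd7 mutant group (4 arrays) the deletion is driven by Atoh1-Cre, active in the granule cell lineage, on homozygous floxed Chd7, and the Chd7 control group (4 arrays) is labelled wild type. Atoh1-Cre is thought in the study to recombine probably less well in the posterior lobe. The Chd7 transcript itself, on the probe set where it fell, had a log2 signal of 9.47 ± 0.54 in mutant against 11.50 ± 0.23 in control arrays (mean ± SD, n = 4 each, limma adjusted p over every probe set 0.018). The other Chd7 probe set differed by -0.25 (adjusted p = 0.453). The second comparison is of neurons in ICRF-193 (4 arrays, 10 µM, 12 h), which blocks the catalytic cycle of topoisomerase II enzymes, with neurons in its solvent DMSO (4 arrays). Cells cultured with an agent labelled Smo2 (3 arrays) were set against cells cultured without it (3 arrays). The methods describe an agonist of Smoothened, which switches on the hedgehog pathway, and whether Smo2 is that agent is not given in the labels. The study treats array samples cultured with that agonist as proliferating progenitors and those cultured without it as postmitotic neurons. The ICRF-193, DMSO and Smo2 groups carry no engineered allele in the labels.

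Fos, Fosb, Fosl2, Jun and Junb encode subunits of AP-1, a dimeric transcription factor. Egr1 and Egr3 encode zinc finger factors, Npas4 a basic helix-loop-helix factor that in neurons is induced selectively by depolarization and calcium entry, Nr4a1 an orphan nuclear receptor, and Arc a cytoskeleton-associated protein of the synapse. Depolarization or growth factors act through calcium, CaM kinases and MAP kinases on Creb bound at cyclic AMP response elements (CRE) and on Srf with its Elk partners to start transcription, and the transcripts are short-lived. Type II topoisomerases relieve torsion ahead of the polymerase, and Top2b, the form of postmitotic neurons, is known to cut DNA at the Fos and Npas4 promoters when cultured cortical neurons are stimulated.

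The promoters of the members whose signal varied most are shown because TGACG, the core of the CRE, is the element through which calcium signals are known to reach Fos. Of the 10 members 7 had an entry among the RefSeq promoter sequences (GRCm38.p6), of which the 250 bases before the annotated start were read. Those shown are Fos (chr12:85473640-85473889, + strand), Npas4 (chr19:4989972-4990221, - strand), Nr4a1 (chr15:101266596-101266845, + strand) and Fosl2 (chr5:32136222-32136471, + strand), written 5′ to 3′ toward the start, with TGACG or its reverse complement CGTCA in capitals.
Fos promoter: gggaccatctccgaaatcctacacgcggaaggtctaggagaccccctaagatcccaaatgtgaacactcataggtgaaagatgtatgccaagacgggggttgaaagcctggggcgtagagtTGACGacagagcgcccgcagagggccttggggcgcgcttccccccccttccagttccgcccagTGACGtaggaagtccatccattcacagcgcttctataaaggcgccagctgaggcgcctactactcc
Npas4 promoter: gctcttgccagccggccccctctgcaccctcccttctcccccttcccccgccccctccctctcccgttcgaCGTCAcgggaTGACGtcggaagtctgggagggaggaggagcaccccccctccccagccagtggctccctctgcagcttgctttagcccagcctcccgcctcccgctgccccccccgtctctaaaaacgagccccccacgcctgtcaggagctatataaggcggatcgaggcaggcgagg
Nr4a1 promoter: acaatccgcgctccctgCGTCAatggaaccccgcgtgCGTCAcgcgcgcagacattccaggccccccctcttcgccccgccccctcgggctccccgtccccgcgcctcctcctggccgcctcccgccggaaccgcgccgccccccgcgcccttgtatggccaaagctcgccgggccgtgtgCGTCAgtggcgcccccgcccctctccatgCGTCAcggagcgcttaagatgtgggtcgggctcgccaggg
Fosl2 promoter: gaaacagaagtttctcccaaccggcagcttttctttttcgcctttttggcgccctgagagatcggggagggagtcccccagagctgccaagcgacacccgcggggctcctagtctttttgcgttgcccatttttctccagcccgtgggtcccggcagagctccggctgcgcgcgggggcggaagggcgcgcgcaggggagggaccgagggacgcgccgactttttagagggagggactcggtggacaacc
TGACG occurred 2 times in the Fos window, 2 times in that of Npas4 and 4 times in that of Nr4a1, and in Fos the copies lay 129 and 66 bases before the start. Fosb and Junb had 1 copy each, and no copy was found in the windows of Fosl2 and Jun. Of all 32851 promoter windows of this length 17.8% held at least 1 copy on either strand and 3.9% held 2 or more. The full palindrome TGACGTCA (1.55% of all windows), the AP-1 site TGANTCA (6.75%) and the CArG box bound by Srf (1.47%) were found in none of the 7 windows on either strand, and TGACG lies within TGACGTCA. Bases farther than 250 before the start and variant spellings of these sites were not searched, and Egr1, Egr3 and Arc had no entry. The starts of the Npas4, Nr4a1 and Fosb entries lie inside the annotated span of the gene. The bases before the outer start of that span were not read as a window for these genes. The windows therefore do not show that a member lacks such a site.

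Signals are given as log2 of the authors' scaled intensity, floored at 16 (a log2 value of 4) and quantile normalized over all arrays. The arrays give no counts, so their number limits the precision. The trimmed mean of the intensities was 500 on every array, array medians lay between 6.33 and 6.81 before quantile normalization, and no 2 of the 231 pairs of arrays were identical. Only Fos, Fosl2, Jun, Egr1 and Nr4a1 were brighter on average than the median probe set (6.44), the limit set for a table of 10771 genes, and these 5 were tested in it. Fosb, Junb, Egr3, Arc, Npas4 and the second probe sets were read from a fit of all 45037 probe sets that are not array controls. A p adjusted over that larger set is named as such. Differences are called at an adjusted p under 0.05, and p-values measure the spread between the samples of these cultures.

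Replicates 1 and 2 stood apart from replicates 3 and 4 in the Chd7 and ICRF-193 experiments, and immediate early genes were among the genes with the widest differences between these sets in some groups. The labels do not describe such sets. Across the gene table, without the members, same-numbered arrays of the 2 Chd7 groups had correlated deviations from their group means (0.39 to 0.42), and so had those of the ICRF-193 and DMSO groups (0.28 to 0.41). Between arrays of another number in the same set the correlation was as high, at 0.38 to 0.44 and 0.30 to 0.34. The replicate number is therefore not shown to pair arrays beyond their set. Results of these experiments are therefore given within each set as well. P-values within a set, and those for a difference of effects between sets, measure the spread between arrays of the same set. Each group holds 1 set of each kind, so the spread between sets of a kind is not measured.

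Fos, the AP-1 subunit for which the family is named, had the widest range of the 13 probe sets, from 6.95 to 12.95. Fos gave 12.89, 12.95, 9.41 and 9.51 in Chd7 mutant replicates 1 to 4, against 12.47, 12.55, 11.67 and 11.90 in control replicates 1 to 4. It gave 10.59, 10.64, 8.72 and 8.80 in ICRF-193 replicates 1 to 4, against 12.90, 12.73, 9.40 and 9.46 in the DMSO replicates. Within each group replicates 1 and 2 were all higher than replicates 3 and 4, and the 2 arrays of a set lay within 0.23 of each other. In the cultures with Smo2 Fos gave 7.42, 6.95 and 7.35, against 7.94, 7.92 and 7.81 without Smo2, below every array of the other 4 groups. The mean was 11.19 ± 2.00 in Chd7 mutant and 12.15 ± 0.43 in control, 9.69 ± 1.07 in ICRF-193 and 11.12 ± 1.95 in DMSO, and 7.24 ± 0.26 with and 7.89 ± 0.07 without Smo2 (SD). By mean, Fos was highest in Chd7 control, followed by Chd7 mutant, DMSO and ICRF-193, whose ranges overlap from each group to the next, then by the arrays without and those with Smo2, which overlap with none. Experiment and culture cannot be told apart across the 3 experiments.

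The order of the groups differed between members. Nr4a1 had the order of Fos, with 7.94 ± 1.56 in Chd7 mutant and 8.42 ± 0.58 in control, 6.88 ± 0.26 in ICRF-193 and 7.91 ± 0.72 in DMSO, and 6.00 ± 0.12 with and 6.52 ± 0.29 without Smo2 arrays. Jun was highest in the Smo2 cultures (11.59 ± 0.10 with and 11.65 ± 0.12 without), followed by Chd7 mutant (10.26 ± 0.54), DMSO, Chd7 control (10.01 ± 0.15) and ICRF-193 arrays (9.52 ± 0.22, against 10.21 ± 0.27 in DMSO). Egr1 was highest in Chd7 mutant arrays (9.09 ± 0.50), followed by DMSO, ICRF-193 and Chd7 control and then by arrays with (7.46 ± 0.09) and without Smo2 (7.03 ± 0.14). Fosl2 was highest in the Chd7 experiment and in the arrays with Smo2 (9.16 ± 1.28 in mutant, 9.33 ± 0.47 in control and 9.09 ± 0.03 with Smo2) and lowest without Smo2 (7.41 ± 0.18). For Jun all arrays of the Smo2 cultures lay above those of the other 4 groups, and for Nr4a1 the arrays with Smo2 lay below all others. For Nr4a1, Jun and Egr1 the ranges of the other neighbours in these orders overlap, except those of Jun in ICRF-193 and Chd7 control arrays and those of Egr1 with and without Smo2.

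The difference of Fos between replicates 1 and 2 and replicates 3 and 4 was 3.46 in Chd7 mutant and 0.72 in control arrays, and 1.86 in ICRF-193 and 3.38 in DMSO arrays. By size it ranked first among the 10771 genes in DMSO, at 10 in mutant, at 22 in ICRF-193 and at 329 in control arrays, where the median size over all genes was between 0.13 and 0.17. Npas4 moved with Fos, by 3.98 in Chd7 mutant and 1.11 in control arrays and by 1.47 in ICRF-193 and 3.50 in DMSO arrays. Its signal reached the floor on both mutant arrays of replicates 3 and 4. Nr4a1 differed between the sets by 2.65 in Chd7 mutant, 1.00 in control, 0.43 in ICRF-193 and 1.22 in DMSO arrays.

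**Figure D1:**
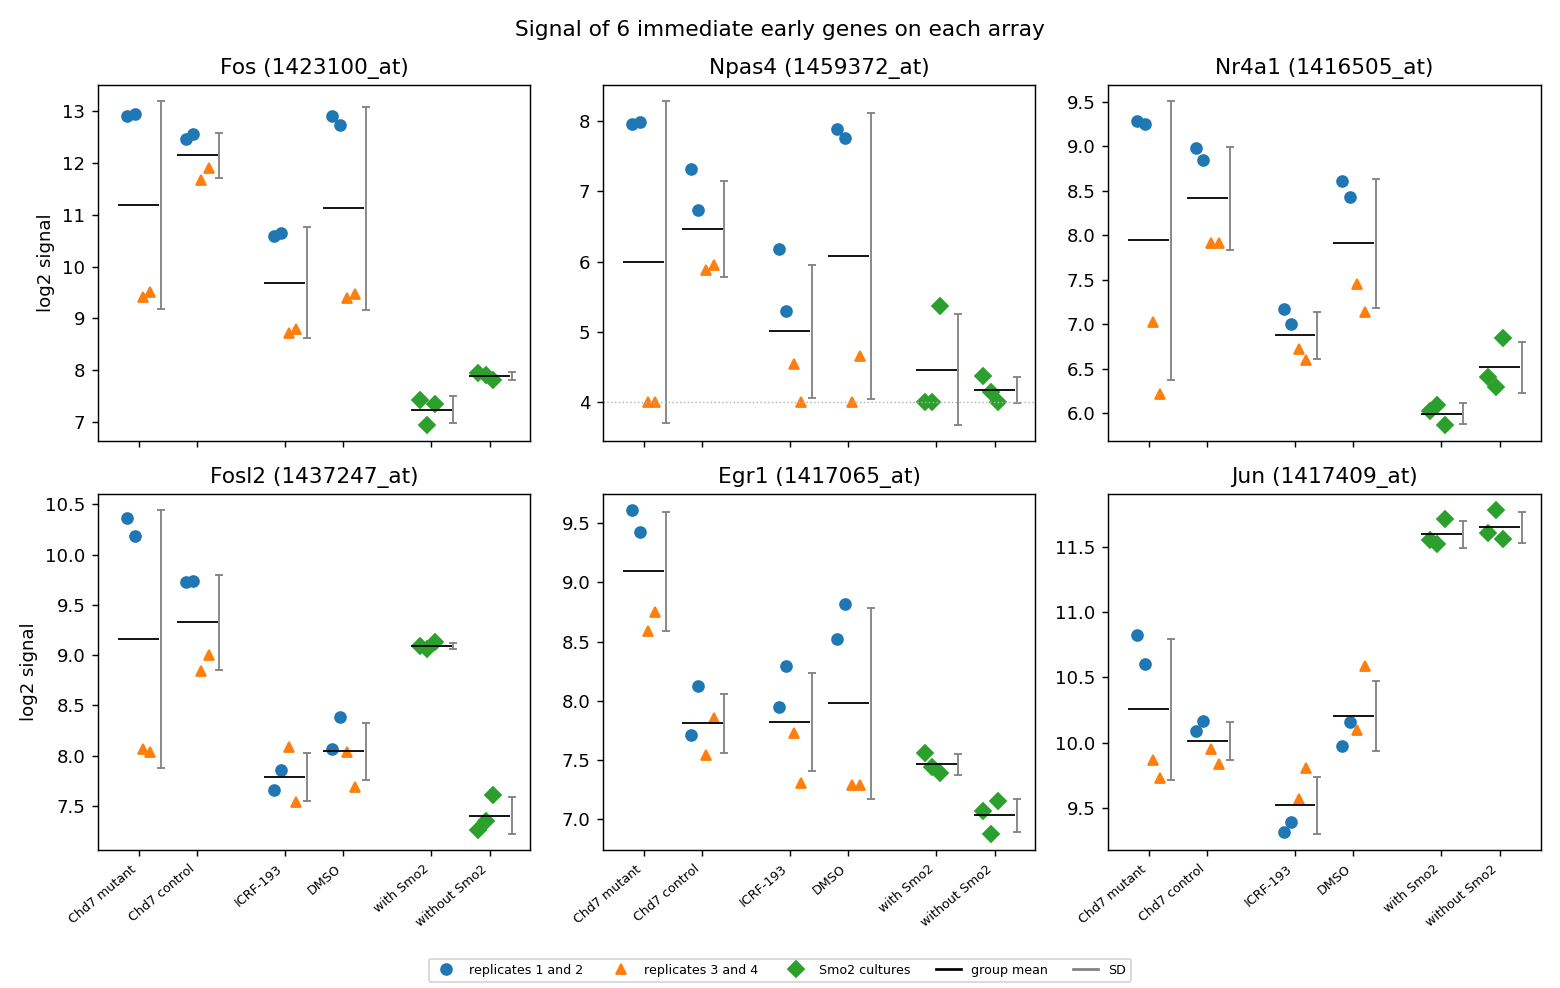
Log2 signal (vertical axis, with its own range in each panel) of Fos, Npas4, Nr4a1, Fosl2, Egr1 and Jun on each of the 22 arrays, by group. Circles are replicates 1 and 2, triangles replicates 3 and 4 and diamonds the Smo2 cultures, black lines are group means, grey bars the SD, and the dotted line is the floor of 4. Fos of Chd7 mutant arrays lies at 12.89 and 12.95 in replicates 1 and 2 and at 9.41 and 9.51 in replicates 3 and 4.

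Not all members followed this split. Fosl2, which encodes Fra-2, differed between the sets by 2.22 in Chd7 mutant and 0.81 in control arrays, but by -0.05 in ICRF-193 and 0.36 in DMSO arrays. Egr1 differed by 0.85 in mutant, 0.22 in control, 0.61 in ICRF-193 and 1.38 in DMSO arrays. Jun differed by 0.91 in Chd7 mutant and 0.23 in control arrays, and by -0.33 in ICRF-193 and -0.27 in DMSO arrays, with the higher mean in replicates 3 and 4. The second Jun probe set differed by -0.18 in ICRF-193 and by 0.18 in DMSO arrays, so the direction in DMSO was not shared by both probe sets. Across the 22 arrays the deviations of Fos from its group means had a Pearson correlation of 0.96 with those of Npas4, 0.91 with Egr1, 0.87 with Nr4a1, 0.72 with Fosl2 and 0.30 with Jun. These points share the 2 sets of replicates, so the correlations describe that split.

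Among genes that are no members, the levels of Clec4e (r = 0.96), C1galt1c1 (0.94), Ostm1 (0.92), Acod1 (0.92) and Mir670hg (0.92) were most like those of Fos over the 22 arrays, and Nr4a1 (r = 0.94) ranked 2. For deviations from the group means the most alike were Rab3c (0.97), Atp6ap2 (0.96), Lhfp (0.96), Calb1 (0.95) and Rgs10 (0.95). The arrays share their group and set in these values.

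**Figure D2:**
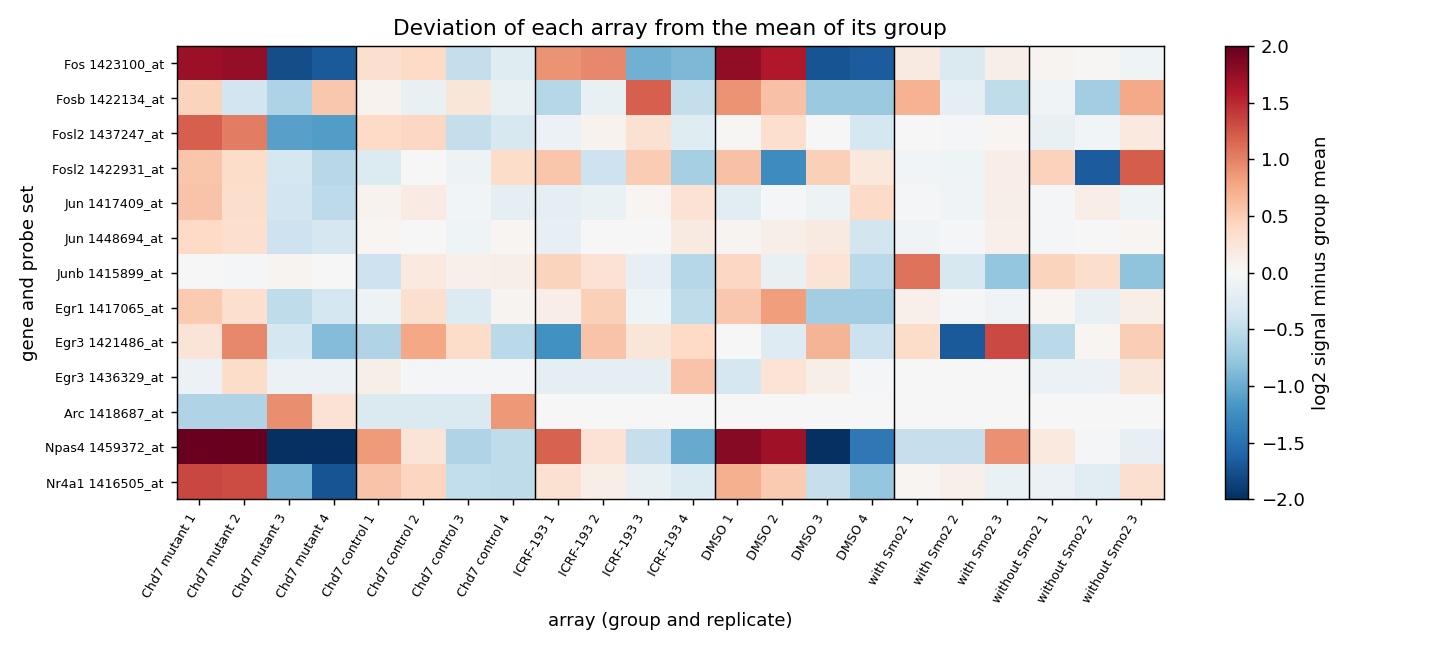
Deviation of each array (columns, by group and replicate) from the mean of its group in log2 signal, for the 13 member probe sets (rows). Red is above and blue below the group mean. Fos, Npas4 and Nr4a1 are red in replicates 1 and 2 and blue in replicates 3 and 4 of the Chd7 mutant, Chd7 control, ICRF-193 and DMSO groups.

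The 8 measured granule cell markers, out of 10 listed, summed to 62222 or more on every array. In the arrays with Smo2 their sum was 62222 to 68863, against 69756 to 72024 for the dividing cell genes. Such sums do not give the share of granule cells in a sample. Markers of other cells differed between the sets. The summed linear signal of 7 astrocyte and Bergmann glia markers, out of 8 listed, was 8787 to 8798 in replicates 1 and 2 and 33834 to 34305 in replicates 3 and 4 of the Chd7 mutant group. In Chd7 control arrays it was 6792 to 6918 in replicates 1 and 2 and 16211 to 17269 in replicates 3 and 4. The shift had the same direction in ICRF-193 arrays (2861 to 3151 and 4532 to 4718) and in DMSO arrays (3120 to 3411 and 5245 to 5282). The 8 genes of dividing cells were also lower in replicates 1 and 2 in all 4 groups, with sums of 10932 to 11319 against 16242 to 17530 in Chd7 mutant and 11675 to 12224 against 17729 to 17758 in DMSO arrays. The sum of 6 microglia markers was lower in replicates 1 and 2 of the Chd7 mutant (2226 to 2687 against 4983 to 5383) and higher there in DMSO arrays (6189 to 6668 against 2665 to 3342). The part of these cells in the signal of the immediate early genes was not tested, and in bulk RNA fewer cells of a type and less RNA per cell cannot be told apart.

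The comparison of Chd7 mutant with control neurons asks which transcripts depend on this chromatin remodeller. Egr1 was the member that rose. It gave 9.61, 9.42, 8.59 and 8.75 in Chd7 mutant replicates, against 7.71, 8.12, 7.54 and 7.86 in control replicates, and the groups did not overlap. Its mean was 9.09 ± 0.50 in mutant and 7.81 ± 0.25 in control arrays (SD, n = 4 each), a 2.44-fold higher signal (log2 difference 1.29, SE 0.24, limma adjusted p = 0.0167). Of the 10771 genes 8.89% were called in either direction, 5.07% higher and 3.83% lower, against 1 of 5 members higher and none lower. Groups did not overlap for 19.6% of the genes in the table. Egr1 was higher in 4 of 4 pairs of the same number, by 1.60 within replicates 1 and 2 and by 0.97 within replicates 3 and 4 (adjusted p = 0.0137 and 0.0187), and the difference of the effect between the sets missed the threshold (-0.63, adjusted p = 0.242). The call of Egr1 was lost without control replicate 1 (1.25, adjusted p = 0.0515) or 3 (1.20, adjusted p = 0.0514), and over every probe set its adjusted p was 0.0607.

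Fos, Fosl2, Npas4 and Nr4a1 missed the threshold over all 8 arrays, and their differences ran in opposite directions in the 2 sets. Fos was higher in Chd7 mutant than in control arrays within replicates 1 and 2 (log2 difference 0.41, limma adjusted p = 0.0426) and lower within replicates 3 and 4 (-2.33, 5.02-fold, adjusted p = 0.00251). The effect differed between the sets by -2.74 (SE 0.13, adjusted p = 0.00091 over the gene table, in which 2.62% of genes were called by this test, which was added after the data were seen). Over all arrays the difference of Fos was -0.96 (SE 0.87, 95% confidence interval -2.96 to 1.05, adjusted p = 0.533).

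Fosl2 gave 10.36, 10.18, 8.07 and 8.04 in mutant replicates, against 9.73, 9.73, 8.84 and 9.00 in control replicates. The control values lay between the mutant sets, so that Fosl2 was 0.54 higher within replicates 1 and 2 (adjusted p = 0.0368) and 0.86 lower within replicates 3 and 4 (adjusted p = 0.00904), an effect that differed by -1.41 (adjusted p = 0.00523). The dimmer probe set of Fosl2 differed by 0.22 and -0.97 in these sets. Nr4a1, an orphan receptor induced by the same kinases, gave 9.29, 9.25, 7.02 and 6.22 in mutant replicates, against 8.99, 8.85, 7.92 and 7.91 in control replicates. Its difference was 0.35 and -1.29 in the sets (adjusted p = 0.0743 and 0.048), and the difference of effects missed the threshold (adjusted p = 0.0617). Npas4 gave 7.96, 8.00, 4.00 and 4.00 in mutant replicates, against 7.31, 6.73, 5.87 and 5.95 in control replicates, and its effect differed between the sets by -2.87 (adjusted p over every probe set 0.0464). The mutant values of 4.00 are the floor, so the signal there was not above it.

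Jun, the partner of Fos in AP-1, gave 10.83, 10.60, 9.87 and 9.73 in mutant replicates, against 10.09, 10.17, 9.96 and 9.84 in control replicates (log2 difference 0.24, SE 0.24, adjusted p = 0.571). Within replicates 1 and 2 Jun was 0.58 higher in mutant arrays (limma adjusted p = 0.0418), and within replicates 3 and 4 it differed by -0.10 (adjusted p = 0.507). The difference of its effect between the sets missed the threshold (-0.68, adjusted p = 0.0656). The second Jun probe set had a mean of 10.05 ± 0.43 in mutant and 10.05 ± 0.05 in control arrays. It differed by 0.35 and -0.36 in the sets (adjusted p over every probe set 0.123 and 0.175). Junb lay at 6.73 to 6.83 in mutant arrays and at 6.09 to 6.69 in control arrays, ranges that do not overlap, as in 10.7% of all probe sets, and its difference of 0.28 missed the threshold (adjusted p over every probe set 0.379). None of the 13 probe sets was called in the fit of every probe set, where 2.76% of all were.

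**Figure D3:**
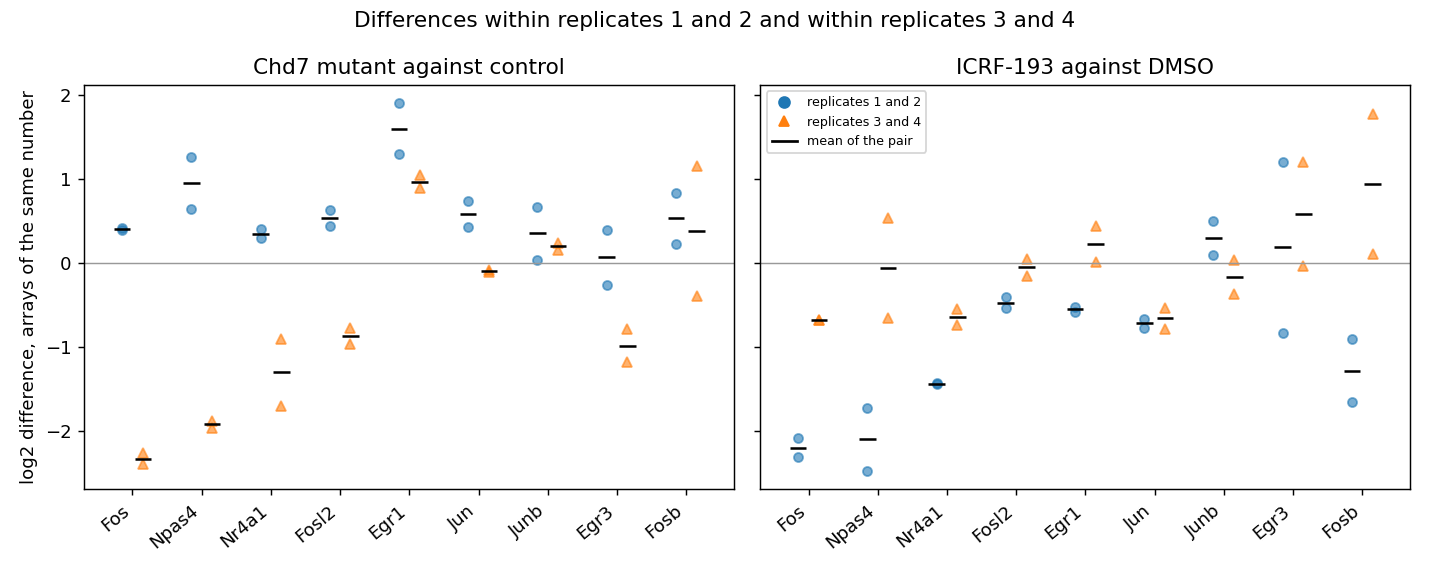
Log2 differences between arrays of the same number, Chd7 mutant minus control (left) and ICRF-193 minus DMSO (right), for the brightest probe set of 9 members. Circles are replicates 1 and 2, triangles replicates 3 and 4 and black lines the means of a set. For Chd7, Fos lies at 0.41 in the first set and at -2.33 in the second, whereas Egr1 is above 0 in both.

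Chd7 mutant and control arrays differed in marker lists too. Called higher were 1 of 7 oligodendrocyte lineage genes, 1 of 7 astrocyte genes, 2 of 6 fibroblast, pericyte and endothelial genes and 1 of 8 dividing cell genes (Ccnd1, 1.05, adjusted p = 0.0011), and none of these lists or of the 6 microglia markers had a gene called lower. With the replicate number as a block, where 13.1% of all genes were called, 6 oligodendrocyte, 4 astrocyte, 4 fibroblast, pericyte and endothelial and 6 dividing cell genes were called higher, and 4 microglia genes were called lower. Of 8 granule cell genes 1 was called lower with and without the block, and 1 was called higher with it alone. The summed signal of the oligodendrocyte list was 23297 to 23950 (replicates 1 and 2) and 17256 to 17624 (replicates 3 and 4) in mutant arrays, against 13653 to 13827 and 5509 to 5539 in control arrays. The microglia sum was 2226 to 2687 (replicates 1 and 2) and 4983 to 5383 (replicates 3 and 4) in mutant arrays, against 4395 to 4450 and 6672 to 7176 in control arrays, and the dividing cell sum was 10932 to 11319 and 16242 to 17530, against 8479 to 9050 and 10992 to 11141. All 3 muscle genes in the table were called higher in mutant arrays, with sums of 916 to 1868 against 227 to 335 in control arrays. The part of these cells in the change of Egr1 was not tested. Of 27 other activity-induced and early response genes 3 rose in the mutant, namely Myc (0.81), Gadd45g (0.54), a stress-inducible growth arrest gene, and Btg2 (0.43), an antiproliferative gene, and none fell. Under the replicate block 7 of them were called higher, with Ier5 (0.72), Rgs2 (0.48), Dusp5 (0.42) and Gadd45b (0.59) added, and 1 lower, Klf6 (-0.62, adjusted p = 0.0476). The list's median difference was 0.01, against 0.00 over all genes. Of 6 other AP-1, Egr and Nr4a family genes none was called, and of 17 regulators of immediate early transcription 1 fell, the calcium-dependent kinase gene Camk2d (-0.62, median of the list -0.14). Under the block Rps6ka5 (-0.44) was also called lower and Elk3 (0.78) higher. Of 11 heat shock genes Hspb1 (0.85) and Hspe1 (0.40) rose, and Hspa1b (-0.23) was called lower under the block alone (adjusted p = 0.0494).

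In the fit without a block Jun fell with ICRF-193 and was the only member called over the 8 arrays. Fos and Nr4a1 were below their DMSO counterparts in every pair of arrays without passing that test. With the set as a block, where 11.7% of all genes were called, Fos and Nr4a1 were called lower too. The comparison asks which transcripts need topoisomerase II activity. Jun gave 9.32, 9.40, 9.57 and 9.81 in ICRF-193 replicates, against 9.98, 10.16, 10.10 and 10.59 in DMSO replicates, without overlap. Its mean was 9.52 ± 0.22 in ICRF-193 and 10.21 ± 0.27 in DMSO arrays (SD, n = 4 each), a 1.60-fold lower signal (log2 difference -0.68, SE 0.15, limma adjusted p = 0.0346). Of the 10771 genes 6.64% were called, 3.48% lower and 3.16% higher, against 1 of 5 members lower and none higher, and 14.3% did not overlap between the groups. The second Jun probe set lay at 9.47 to 9.81 in ICRF-193 and at 9.86 to 10.40 in DMSO arrays, also without overlap, as for 7.61% of all probe sets. Its difference of -0.58 missed the threshold over every probe set (adjusted p = 0.115), where 1.95% of probe sets and none of the 13 were called. Within the sets the difference of Jun was -0.71 in replicates 1 and 2 and -0.65 in replicates 3 and 4 (adjusted p = 0.0549 and 0.226). The limma adjusted p of Jun was 0.0054 with the replicate number as a block and 0.0088 with the set as a block. The call of Jun was lost without ICRF-193 replicate 1, 2 or 3 and without DMSO replicate 2, 3 or 4 (adjusted p up to 0.096), and over all arrays left out in turn the difference lay between -0.78 and -0.56. With no brightness limit its adjusted p was 0.0863, and by the methods' t-test, which does not pool the spread over genes, 0.0899.

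Fos had a mean of 9.69 ± 1.07 in ICRF-193 and 11.12 ± 1.95 in DMSO arrays and missed the threshold over all 8 arrays (log2 difference -1.43, SE 0.94, adjusted p = 0.468). It was lower with ICRF-193 in 4 of 4 pairs, by 4.58-fold within replicates 1 and 2 (-2.19, adjusted p = 0.00866) and by 1.59-fold within replicates 3 and 4 (-0.67, adjusted p = 0.0593). The adjusted p was 0.0572 with the replicate number as a block and 0.0165 with the set as a block. Nr4a1 gave 7.17, 7.01, 6.73 and 6.60 in ICRF-193 replicates, against 8.61, 8.43, 7.46 and 7.14 in DMSO replicates (-1.03, SE 0.33, adjusted p = 0.114). It was lower in 4 of 4 pairs, and with the replicate number as a block the adjusted p of Nr4a1 was 0.0269, so the block changes this call (8.78% of genes were called with it). With the set as a block the limma adjusted p of Nr4a1 was 0.0075 (11.7% of genes called). Nr4a1 was also called without DMSO replicate 4 (-1.29, adjusted p = 0.0442). Npas4 gave 6.18, 5.30, 4.54 and 4.00 in ICRF-193 replicates, against 7.89, 7.77, 4.00 and 4.65 in DMSO replicates, with a difference of -2.09 within replicates 1 and 2 (adjusted p over every probe set 0.276). In replicates 3 and 4 Npas4 was at or near the floor in both groups. The test of the effect between the sets called no gene of the table in this comparison (0.00%), and for Fos it gave a difference of 1.52 with an adjusted p of 0.157.

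Egr1 and Fosl2 showed no called difference with ICRF-193. Egr1 gave 7.95, 8.30, 7.73 and 7.31 in ICRF-193 replicates, against 8.52, 8.82, 7.29 and 7.29 in DMSO replicates (-0.16, 95% confidence interval -1.04 to 0.72, adjusted p = 0.876). Fosl2 lay at 7.54 to 8.09 in ICRF-193 and at 7.69 to 8.39 in DMSO arrays (-0.26, interval -0.64 to 0.12, adjusted p = 0.465). The summed microglia signal was 6360 to 6435 in ICRF-193 and 6189 to 6668 in DMSO arrays in replicates 1 and 2, and 2230 to 2237 against 2665 to 3342 in replicates 3 and 4. That of dividing cell genes was 14628 to 15534 in ICRF-193 and 11675 to 12224 in DMSO arrays in replicates 1 and 2, and 20957 to 22058 against 17729 to 17758 in replicates 3 and 4. Of the marker lists, 2 of 8 granule cell genes (Rbfox3, -1.02, and Atoh1, -0.90), 1 of 7 oligodendrocyte genes (Cnp, -0.97, median of the list -0.62) and 1 of 4 Purkinje cell and interneuron genes (Gad1, -0.42) were called lower, and 1 of 8 dividing cell genes higher. The oligodendrocyte sum was 6002 to 7366 in ICRF-193 and 7606 to 7780 in DMSO arrays in replicates 1 and 2, and 8365 to 8899 against 10543 to 11139 in replicates 3 and 4. Under the replicate block 4 oligodendrocyte and 2 Purkinje cell and interneuron genes were called lower, and 1 oligodendrocyte and 4 dividing cell genes higher. In the astrocyte list 1 gene was then called lower, and in the fibroblast, pericyte and endothelial list 1 was called lower and 1 higher. The part of these cells in the change of Jun was not tested.

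Genes around the members were also described in ICRF-193 arrays. Of the 17 regulators of immediate early transcription 3 fell, where 3.48% of all genes were called lower. They are Ppp3ca (-1.48), the catalytic subunit of calcineurin, and the calcium and calmodulin-dependent kinase genes Camk4 (-1.07) and Camk2d (-0.96), and the list had a median of -0.07 against 0.01 over all genes. The study reports that long genes fell selectively with ICRF-193, and the part of gene length in these falls was not tested. Of 27 other early response genes Sgk1 (-0.77) and Btg1 (-0.28) fell, and Gadd45g (1.17) and Ier5 (0.82) rose. Of the 11 heat shock genes and of the 6 other family genes none was called. Under the replicate block Btg1 lost its call (adjusted p = 0.0663), and 4 genes were called lower that were not so without it, namely Vgf (-1.01, adjusted p = 0.00392) and Scg2 (-0.44, adjusted p = 0.0186) of the early response genes, the family gene Nr4a2 (-0.67, adjusted p = 0.0155) and the regulator Mef2c (-0.86, adjusted p = 0.0126).

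The culture with Smo2 was set against the culture without it, and 4 of the 5 members in the gene table were called, among 68.6% of all genes (39.0% lower and 29.7% higher). Fosl2 rose most. It gave 9.09, 9.06 and 9.13 with Smo2, against 7.26, 7.35 and 7.61 without, a 3.22-fold higher signal (log2 difference 1.69, SE 0.10, limma adjusted p = 2.36e-05). The dimmer Fosl2 probe set lay at 6.33 to 6.55 with Smo2 and at 4.00 to 6.88 without, and was not called (0.74, adjusted p over every probe set 0.574). Egr1 gave 7.56, 7.44 and 7.39 with Smo2, against 7.07, 6.88 and 7.15 without (1.35-fold higher, log2 difference 0.43, adjusted p = 0.0055).

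Fos and Nr4a1 fell with Smo2. Fos was 1.57-fold lower (log2 difference -0.65, SE 0.13, adjusted p = 0.0052), and the array with the least Fos in the series was with Smo2 replicate 2. Nr4a1 gave 6.03, 6.09 and 5.87 with Smo2, against 6.40, 6.30 and 6.84 without (-0.52, SE 0.15, adjusted p = 0.0223). The call of Nr4a1 was lost without replicate 1 or 3 of the Smo2 cultures (adjusted p up to 0.0708). These 4 genes did not overlap between the groups, as 73.5% of all genes in the table. In a fit that took the spread from all 22 arrays, Fosl2 was still called (adjusted p = 0.00428) and the others were not (Egr1 0.301, Nr4a1 0.476, Fos 0.591). Over every probe set 3 of the 13 were called (29.9% of all), Fosl2, Egr1 and Fos, and 5 did not overlap (41.2% of all). Jun gave 11.55, 11.52 and 11.71 with Smo2, against 11.61, 11.78 and 11.56 without (-0.05, adjusted p = 0.594), and the sign of this difference turned when arrays were centred on their medians (0.16). That scaling moved the median of all genes by 0.14, which is -0.09 as reported. All Jun values of these cultures were above those of the other 4 groups for this probe set, but not for the second one.

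Of the dim members, Npas4 was at the floor on 2 of 3 arrays with Smo2 and on 1 of 3 without, and Arc on all 6. Junb (-0.49), Fosb (-0.20) and the brighter Egr3 probe set (-0.78) were not called, with adjusted p over every probe set of 0.652, 0.86 and 0.586. Beside these values, all 8 dividing cell genes in the table were called higher with Smo2 and their summed signal was 69756 to 72024, against 11164 to 11415 without. Of 8 granule cell markers 7 were called lower and 1 higher, of 7 astrocyte markers 6 lower and 1 higher, and of 6 microglia markers 5 lower. Of 7 oligodendrocyte lineage markers 3 were called lower and 3 higher, and all 4 Purkinje cell and interneuron markers were called lower. In the fibroblast, pericyte and endothelial list 1 of 6 was called higher, as was 1 of 3 muscle genes. Their part in the changes of the members was not tested.

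Most of the other early response genes fell with Smo2. Of 27 other early response genes 16 fell and 6 rose, with a median of -0.36 against -0.09 over all genes. The largest falls were those of Dusp5 (-2.14), a phosphatase of nuclear ERK that is itself induced by it, Ier3 (-1.63), the kinase gene Plk2 (-1.48) and Scg2 (-1.33), a secretory granule protein. Gadd45g (1.70), Ier5 (1.51), Myc (1.36) and the kinase gene Pim1 (1.33) rose most. Of the 17 regulators 14 fell, led by Camk4 (-1.84), Camk2d (-1.30), Rps6ka5 (-1.02), which encodes the histone H3 kinase Msk1, and Mef2a (-0.84), and Elk4 (0.57) and Mef2c (0.42) rose (median of the list -0.53). Of 6 family genes Jund fell (-0.57) and Nr4a2 rose (0.25). Of the 11 heat shock genes 5 rose, with Hspe1 (0.99), Hsph1 (0.98), Hspd1 (0.94) and Hspa5 (0.51) first, and the inducible genes Hspa1a (-1.49) and Hspa1b (-1.31) fell.

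**Figure D4:**
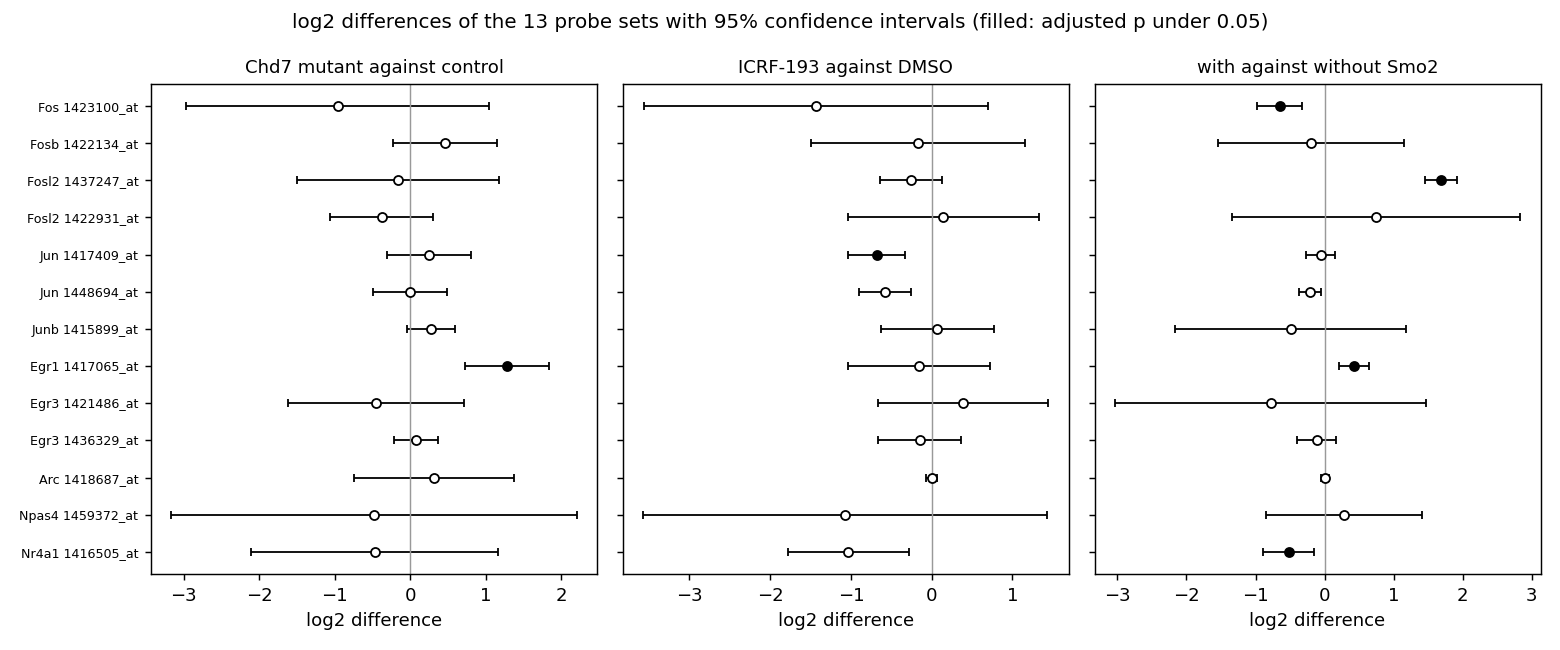
Log2 differences of the 13 member probe sets in the 3 comparisons, with 95% confidence intervals (horizontal axis, a separate range in each panel). Filled points have an adjusted p under 0.05, over the gene table for the brightest probe set of Fos, Fosl2, Jun, Egr1 and Nr4a1 and over every probe set for the rest, and Arc is at the floor on every array of the last 2 comparisons. Egr1 is filled at 1.29 for Chd7, Jun at -0.68 for ICRF-193, and Fosl2 at 1.69, Egr1 at 0.43, Fos at -0.65 and Nr4a1 at -0.52 for Smo2.

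Whether the members responded differently in the 3 comparisons was tested in a fit of all 22 arrays. The difference of Jun with ICRF-193 was lower than that with Chd7 deletion by 0.93 (-0.93, adjusted p = 0.0396), and that of Egr1 by 1.45 (-1.45, adjusted p = 0.0439), where 9.06% of all genes were called. With each of the 16 arrays left out in turn, Jun lost this call in 11 and Egr1 in 10 of the fits. Over every probe set neither was called (limma adjusted p = 0.102 for Jun and 0.113 for Egr1). The second Jun probe set differed by -0.58 there (adjusted p = 0.24). The effect of Smo2 on Fosl2 was higher than that of Chd7 deletion by 1.85 (adjusted p = 0.0199) and than that of ICRF-193 by 1.95 (adjusted p = 0.0139), with 47.6% and 50.7% of all genes called in these tests. Over every probe set the limma adjusted p of Fosl2 was 0.0542 against Chd7 deletion and 0.0391 against ICRF-193. The dimmer Fosl2 probe set was called in neither (adjusted p = 0.401 and 0.696). The other members in the gene table were not called in these tests, and culture and experiment cannot be told apart between the comparisons.

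The dim members carried little signal. Arc was above the floor on 3 of 22 arrays, at 5.54 and 4.89 in Chd7 mutant replicates 3 and 4 and at 5.16 in control replicate 4. Fosb reached at most 5.77, in ICRF-193 replicate 3, and was at the floor on 8 arrays. The 2 Egr3 probe sets lay between 4.00 and 6.99 and between 4.00 and 4.76. Junb was highest in Chd7 mutant arrays (6.77 ± 0.04) and lowest with Smo2 (5.16 ± 0.97), and its groups overlapped with their neighbours in this order except Chd7 mutant and control.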

How the data were processed

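RNA of 22 samples in 6 groups was hybridised to Affymetrix mouse expression arrays. The deposited table holds, for 45101 probe sets, the linear signal intensity that the authors had scaled to a mean of 500 on each array after trimming 2% at each end. The software that summarised the probes was not named in the sources used. Signals were floored at 16, taken to log2 and quantile normalized, and probe sets were named through GEO's platform annotation (34945 carry 1 symbol, 932 several and 9211 none, and 64 array controls were not tested). A gene is its brightest probe set, with a mean of at least 6.44. Groups were compared with limma 3.58.1 in R 4.3.3 (lmFit and eBayes, two-sided, Benjamini-Hochberg over all genes or probe sets), and the fit was tested on simulated data. The simulated noise was independent for each gene and array and held no sets of replicates. It therefore does not test the fit under the split of replicates seen here. Same-numbered arrays deviated together in the Chd7 and ICRF-193 experiments and not in the Smo2 experiment (-0.01 to 0.03). Arrays of another number in the same set deviated together as much, so the number is not shown to pair samples beyond the set. In the Chd7 and ICRF-193 experiments the replicate block is printed where it changes a call of a member or of a related gene, and as counts for the marker lists. Every member is named, with up to 4 called genes a direction of each related list. The members and the gene lists were chosen with earlier results of these data known. Alternatives changed the scaling, floor, filter, probe sets, variance model, test, block, threshold and arrays used. Python 3.11.15 with matplotlib 3.10.9 made the figures.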

Additional observations from a re-analysis of the deposited data

Results flagged for a closer look

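The effect on Jun of ICRF-193 was lower than that of Chd7 deletion by 0.93 (-0.93, limma adjusted p = 0.0396), and that on Egr1 by 1.45 (-1.45, adjusted p = 0.0439). Over every probe set neither was called (adjusted p = 0.102 and 0.113). The effect on Fosl2 of Smo2 was higher than that of Chd7 deletion by 1.85 (adjusted p = 0.0199) and than that of ICRF-193 by 1.95 (adjusted p = 0.0139). Over every probe set the adjusted p was 0.0542 and 0.0391. Between replicates 3 and 4 and replicates 1 and 2 the effect of Chd7 deletion differed by -2.74 for Fos (adjusted p = 0.00091), by -1.41 for Fosl2 (adjusted p = 0.00523) and by -2.87 for Npas4 (adjusted p over every probe set 0.0464). The mutant arrays of replicates 3 and 4 held less of these genes than the control arrays and those of replicates 1 and 2 held more. The p-values of these set differences measure the spread between arrays of the same set. Each group holds 1 set of each kind, and the sets were noticed in these same data. In 4 of 52 groups of 4 arrays 1 array stood apart by Dixon's criterion at the 95% level. They were Arc at 5.16 in Chd7 control replicate 4, and the dimmer Egr3 probe set at 4.16 in Chd7 control replicate 1, at 4.48 in Chd7 mutant replicate 2 and at 4.76 in ICRF-193 replicate 4. In each of them the other 3 arrays were at the floor of 4.00. Any value above the floor meets the criterion there, so it does not show that these arrays are outliers.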

How the results depend on the processing

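The number of members called, of 5 tested unless stated, is given with the share of all genes called in the same fit. It was 1 for Chd7 (8.89%), and became 0 of 2 with the brightness limit at the upper quartile (12.5%), 4 within replicates 1 and 2 (10.4%), 4 within replicates 3 and 4 (14.0%), 0 with set means as samples (0.00%) and 0 at an adjusted p under 0.01 (2.91%). For ICRF-193 it was 1 (6.64%), and became 0 of 10 with no filter (2.97%), 0 with the methods' t-test (5.12%), 2 with the replicate block (Jun and Nr4a1, 8.78%), 3 with the set as a block (11.7%), 2 within replicates 1 and 2 (2.82%), 0 within replicates 3 and 4 (1.99%), 0 with set means as samples (0.557%) and 0 at an adjusted p under 0.01 (3.15%). For Smo2 it was 4 (68.6%), and became 1 of 2 with the limit at the upper quartile (78.3%) and 1 in a fit of all 22 arrays (62.6%). It became 3 of 10 with no filter (39.8%) and 3 with a variance trend and robust estimation (70.5%). It was also 3 with the methods' t-test (62.8%), with the replicate block (66.3%) and at an adjusted p under 0.01 (54.9%). The replicate block, whose number does not pair the Smo2 samples, took the limma adjusted p of Nr4a1 to 0.0583 in the Smo2 comparison. It changed no other call of a member for Smo2 and none for Chd7, and for ICRF-193 it added that of Nr4a1. For ICRF-193 against Chd7 the count of 2 (9.06%) became 0 with arrays centred on medians (5.14%), 0 of 10 with no filter (4.49%), 1 with the mean of probe sets (6.83%) and 0 at 0.01 (4.45%). For Smo2 against Chd7 the count of 1 (47.6%) became 2 with the authors' scaling (50.2%), 2 with the replicate block (53.0%) and 0 at 0.01 (35.0%), and against ICRF-193 the count of 1 (50.7%) became 2 with arrays centred on medians (41.2%), 0 with the mean of probe sets (43.1%), 2 with the replicate block (56.0%), 2 at 0.1 (57.6%) and 0 at 0.01 (38.7%). Leaving out 1 array gave 0 to 1 calls for Chd7, 0 to 1 for ICRF-193, 3 to 4 for Smo2, 0 to 2 for ICRF-193 against Chd7, 1 to 1 for Smo2 against Chd7 and 1 to 1 for Smo2 against ICRF-193. The cause of these changes was not tested, except that fewer arrays enter the fits within sets and the fits of set means.

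Directions turned for members that were not called. For Chd7 they were Fos (0.41), Fosl2 (0.54), Egr3 (0.070), Npas4 (0.96) and Nr4a1 (0.35) within replicates 1 and 2, Jun (-0.10) within replicates 3 and 4 and Npas4 with a floor of 32 (0.022). For ICRF-193 they were Fosb with the authors' scaling (0.015), with log2 of the signal plus 16 (0.16) and within replicates 3 and 4 (0.94), and in that set Junb (-0.16) and Egr1 (0.23). For Smo2 Jun turned with arrays centred on medians (0.16). Without 1 array, the range of the difference for Chd7 was -0.56 to 0.21 for Fosl2, -1.15 to 0.18 for Npas4 and -0.92 to 0.10 for Nr4a1, that for ICRF-193 was -0.57 to 0.13 for Fosb, -0.11 to 0.26 for Junb and -0.39 to 0.12 for Egr1, and that for Smo2 was -0.11 to 0.012 for Jun, -0.55 to 0.19 for Fosb, -1.44 to 0.058 for Egr3 and -0.17 to 0.51 for Npas4. Array signals near the floor of 4.00 limit Fosb, Egr3, Arc and Npas4, for which a difference is understated wherever 1 group is at the floor.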
